A study of Mus musculus with 16 samples.

Results

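The 42 genes described here copy the genome or prepare it for copying. They were chosen by symbol, for what their proteins do, with earlier results of these data known, among 55414 genes counted in each library, and all 42 passed the filter on low counts. They fall into 6 roles, namely the replicative helicase and its activators (12 genes), origin licensing (4), DNA polymerases and primase (8), the sliding clamp with its loader, single-strand binding and Okazaki fragment joining (9), nucleotide supply (4), and chromatin assembly, histone mRNA binding and uracil removal (5). RNA sequencing of polyadenylated RNA compared mouse cells labelled WT with cells labelled Nat10-deficient (Nat10-/- in the titles) at 0, 1, 3 and 5 h after 5 µM actinomycin D, an inhibitor of transcription. Nat10 is the enzyme that acetylates cytidine in RNA to ac4C, and the series asks about the half-life of mRNAs. Per the labels, lineage-depleted bone marrow of either genotype was grown with stem cell factor, thrombopoietin and heparin, and long-term haematopoietic stem cells (LT-HSCs) were sorted at each time, so the 0 h groups differ from the later groups by the drug and by a separate sort. The titles name 32D, a myeloid cell line, in place of sorted stem cells, and how Nat10 was removed, the age of the animals and whether animals were pooled are not given in the sources used here.

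Replication begins when the origin recognition complex, Cdc6 and Cdt1 load the Mcm2 to Mcm7 helicase onto DNA in G1 phase. In S phase Cdc45 and the GINS complex switch the helicase on, primase and polymerase alpha lay down primers, and polymerases delta and epsilon extend them with the help of the clamp Pcna. Nucleotide enzymes supply the building blocks, and chromatin assembly factors place histones on the new DNA. Transcription of many of these genes is switched on together by E2F factors as a cell leaves G1, and stem cells of the marrow are known to be mostly quiescent.

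E2F-type words were therefore looked up in the promoters, from 250 bases before to 50 after each start site in the RefSeq table for GRCm38.p6, whose coordinates are not those of the GRCm39 counts. Entries were found for 35 of the 42 genes, and Mcm4, Gins1, Gins2, Gins4, Rfc2, Pole and Prim2 had none. At least 1 of the words TTTCCCGC, TTTCGCGC, TTTGCCGC and TTTGGCGC, read on both strands, stood in 14 of the 41 member promoters, since some genes have more than 1 start site (34.1%), and in 744 of 32851 promoters of all genes (2.26%). The plain word CCAAT, also read on both strands, stood in 58.5% of member promoters and 37.4% of all. Such a match describes the letters of the window and is not a measured binding site. The stretches below, 5′ to 3′ on the strand of the gene with the E2F-type word in capitals, are shown because they put a helicase subunit, a licensing factor, a polymerase, a clamp loader subunit and a chromatin factor side by side. In Mcm5 and in the first match of Mcm6, 2 matches on opposite strands overlap and are capitalised as 1 run.
Mcm5, chr8:75109332-75109391, plus strand: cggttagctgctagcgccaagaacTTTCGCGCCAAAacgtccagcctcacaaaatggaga
Mcm6, chr1:128359721-128359839, minus strand: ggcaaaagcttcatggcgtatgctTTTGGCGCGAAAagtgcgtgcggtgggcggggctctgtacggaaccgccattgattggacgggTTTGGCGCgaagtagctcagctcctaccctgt
Cdc6, chr11:98907989-98908044, plus strand: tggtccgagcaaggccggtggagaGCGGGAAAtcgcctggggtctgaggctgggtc
Pola1, chrX:93632262-93632317, minus strand: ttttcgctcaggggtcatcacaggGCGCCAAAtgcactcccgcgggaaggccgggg
Rfc3, chr5:151651209-151651242, minus strand: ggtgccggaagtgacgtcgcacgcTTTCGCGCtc
Uhrf1, chr17:56304104-56304159, plus strand: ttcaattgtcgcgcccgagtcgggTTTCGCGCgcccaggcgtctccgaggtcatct

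Each of the 8 groups holds 2 files, and total counts ran from 9142413 to 17274128 per file. The labels call the files biological replicates, but both headers of each of the 8 groups cite one alignment, and nothing says that they came from separate cultures or animals. The chi-square per degree of freedom between the files of a group was 1.07 to 1.89 over the members, and 16.4 to 41.6 between successive times. P-values below therefore measure the spread between the files of a group, which may be technical, and each count over the 42 members is given again with the files of a group summed to 1 library, in a model with a straight line per genotype. A genotype difference of that model at a given time is read from the fitted lines, so it draws on the other times too. In that model no gene of the table was called between genotypes at 0, 1 or 5 h, so the counts by role and by gene list at these times rest on the separate files. Immunoglobulin genes took 3.92% to 66.7% of gene counts in WT files and 4.31% to 27.5% in the others, and the ERCC spike-ins 1.79% to 2.92% and 0.0221% to 0.129%. Nat10 mRNA itself was higher, not lower, in libraries labelled Nat10-deficient at 0 h (log2 fold change 0.33), 3 h (1.21) and 5 h (1.96), and -0.12 (1 h), so counts over the whole gene do not check the labels, and each direction below rests on the labels as given.

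Before the block, most replication genes stood higher in libraries labelled Nat10-deficient. At 0 h 36 of the 42 members were higher, against 36.0% of all 25081 genes tested, and 2 were lower, against 24.2% (edgeR quasi-likelihood test, adjusted p under 0.05, TMM scaling, which sets levels relative to the other genes of the library). The median log2 fold change of the members was 0.57 and that of all genes 0.10. Summed over the members, the level was 3963 and 3913 TMM-scaled CPM (counts scaled to library size) in the WT files and 6072 and 6061 in the others. In these bulk libraries fewer cells of a type and less RNA per cell cannot be told apart. With the files of a group summed, no member was called at 0 h, although 41 of 42 log2 fold changes were above 0 and 23 members had an unadjusted p under 0.05. DESeq2 called 35 higher and 2 lower (26.6% and 22.7% of all genes). Scaling on 30 long-lived reference mRNAs called 28 and 6 (23.8% and 36.2%), with Pcna, Rfc3 and Rpa2 at or below -0.11 on that scale.

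The helicase role held both the most abundant members per length of exon and some of the least abundant, such as Gins3 (3.16 CPM per exonic kilobase) and Cdc45 (4.61). Mcm6 (chr1:128259327-128287401, minus strand, GRCm39) and Mcm3 (chr1:20873192-20890536, minus strand), which encode subunits of the Mcm2 to Mcm7 ring, averaged 106.6 and 104.4 CPM per exonic kilobase over the 16 files. Mcm6 measured 360 and 363 TMM-scaled CPM in the WT files at 0 h, 262 and 257 (1 h), 222 and 221 (3 h), and 365 and 362 (5 h). In libraries labelled Nat10-deficient it measured 619 and 607 (0 h), 645 and 629.8 (1 h), 568 and 566 (3 h), and 641 and 643 (5 h). All files of the latter lay above all WT files, and the log2 fold change was 0.76 ± 0.026 (0 h), 1.29 ± 0.028 (1 h), 1.35 ± 0.032 (3 h) and 0.82 ± 0.031 (5 h), with the SE for n = 2 files per group. Mcm3 measured 306 and 292 TMM-scaled CPM in WT at 0 h, 226 and 224 (1 h), 128 and 133 (3 h), and 202 and 173 (5 h). Its libraries labelled Nat10-deficient held 506 and 526 (0 h), 462 and 469 (1 h), 422 and 409 (3 h), and 569 and 567 (5 h), again without overlap, and the log2 fold change went from 0.78 ± 0.028 at 0 h to 1.59 ± 0.037 at 5 h. Of the 12 helicase genes 11 were higher at 0 h (all genes, 36.0%), with a median log2 fold change of 0.59. The exception was Gins3 (chr8:96360081-96371688, plus strand), a GINS subunit and the member with the lowest 0 h difference. Gins3 measured 10.2 and 11 TMM-scaled CPM in WT at 0 h against 6.93 and 7.99, a log2 fold change of -0.50 ± 0.15. It was -0.12 when read from the lines fitted to the summed files, and 5.64 with ERCC scaling, which moves the median of all genes to between 5.19 and 6.24. By 1 h the order had turned, with 9.18 and 8.84 in WT and 12.3 and 10.8 in the others. At 3 h it was 4.45 and 2.84 against 8.93 and 7.76, and at 5 h 3.21 and 1.86 against 6.82 and 4.82. The 0 h call of Gins3 was lost without the first file labelled Nat10-deficient at 0 h (-0.39, adjusted p = 0.053).

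**Figure D1:**
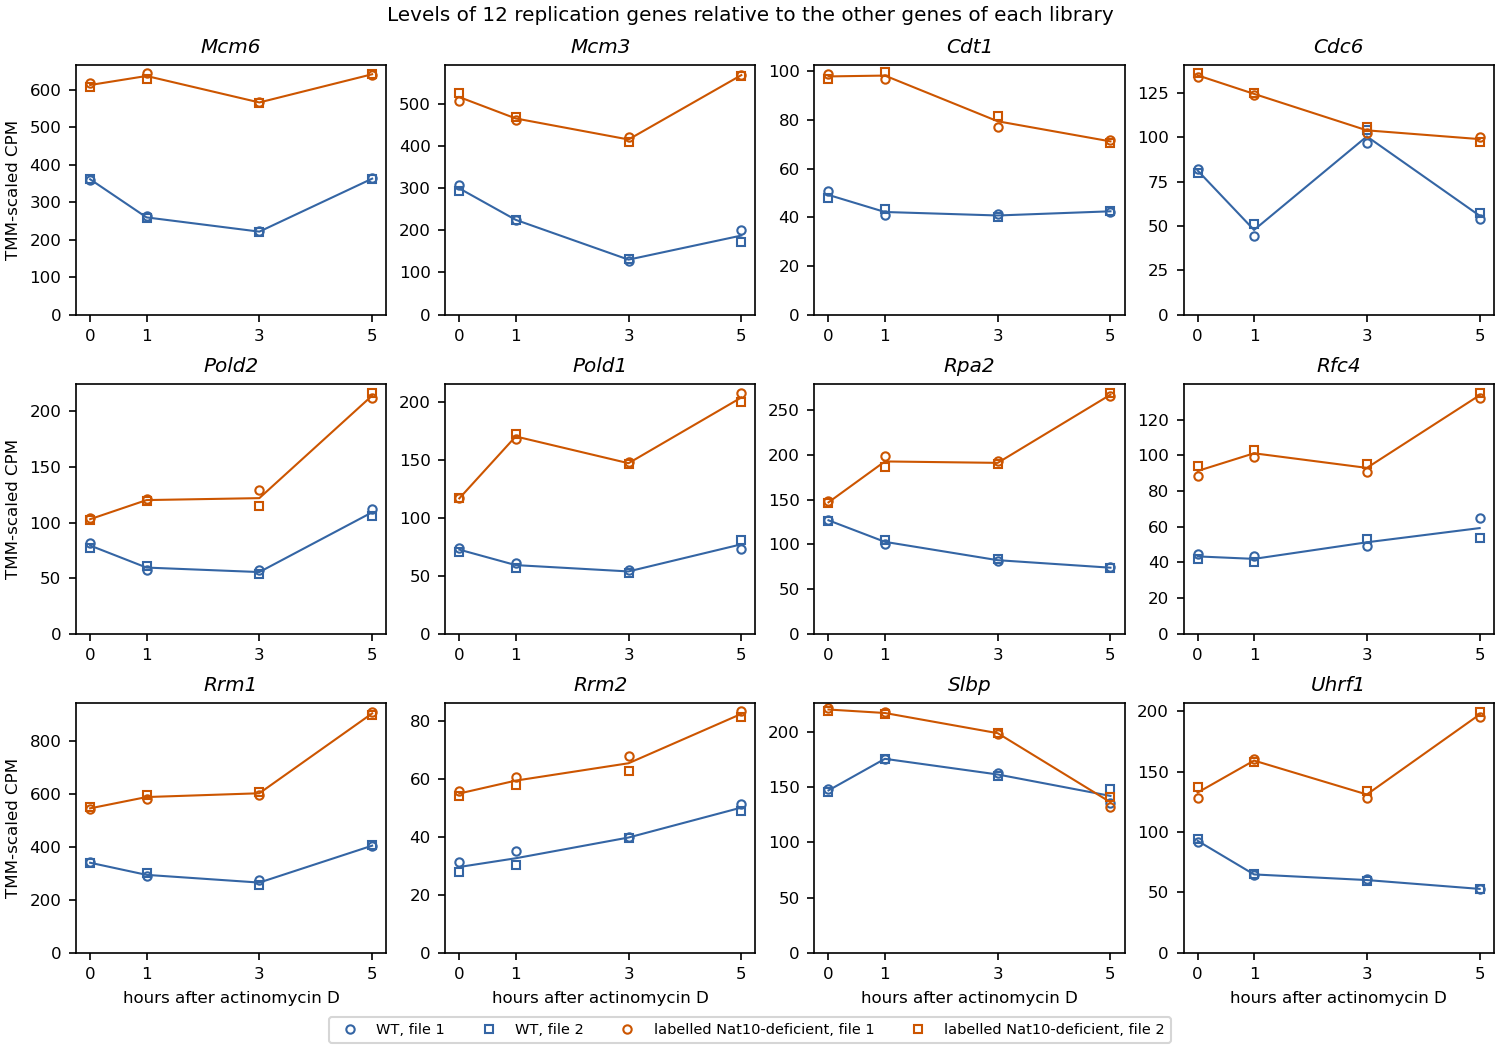
Level of 12 members, the 2 with the highest level per exonic kilobase in each role, in TMM-scaled CPM (vertical axis, from 0) against hours after actinomycin D, with WT in blue, libraries labelled Nat10-deficient in orange, a circle or square for each file and a line through the mean of the files. The orange symbols lie above the blue ones at every time for most genes, and those of Cdc6 (3 h) and Slbp at 5 h lie close together or overlap.

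Licensing genes had a higher level in the same libraries before the block, with 3 of 4 called (all genes, 36.0%) and a median log2 fold change of 0.71. Cdt1, which brings the helicase to origins, measured 50.6 and 47.8 TMM-scaled CPM in WT at 0 h, 40.8 and 43.6 (1 h), 41.5 and 40.1 (3 h), and 42.4 and 42.6 (5 h). In libraries labelled Nat10-deficient it measured 99.1 and 96.8, then 97 and 99.6, 77.2 and 81.9, and 71.9 and 70.6, so the groups did not overlap at any time. Its log2 fold change was 0.99 ± 0.053 (0 h) and 0.75 ± 0.079 at 5 h. Cdc6 (chr11:98798627-98814766, plus strand), the loading factor whose promoter is printed above, had an uneven course in WT. It measured 82.4 and 80.1 TMM-scaled CPM at 0 h, 44.3 and 51.2 (1 h), 96.6 and 104 (3 h), and 54 and 57.5 (5 h), whereas the other genotype gave 134 and 136, then 124 and 125, 102 and 106, and 100.4 and 97.5. The genotype difference of Cdc6 was 0.73 ± 0.045 (0 h) and 1.39 ± 0.053 (1 h), and at 3 h, where the files overlapped, 0.05 ± 0.056 (adjusted p = 0.44; -0.20 with RLE factors and with DESeq2, both called lower). Orc1, the origin recognition subunit, was the licensing gene not called at 0 h (0.15 ± 0.081, adjusted p = 0.11).

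Polymerase and primase genes were higher at 0 h in 7 of 8 cases (all genes, 36.0%). Pold2, a small subunit of polymerase delta with the highest level per exonic kilobase of the role (59.7 CPM per kilobase), measured 81.4 and 77.2 TMM-scaled CPM in WT at 0 h, 57.7 and 61.2 (1 h), 56.9 and 54 (3 h), and 112 and 106 (5 h). Libraries labelled Nat10-deficient held 104 and 102, then 121 and 119, 129 and 115, and 212 and 216. The difference of Pold2 was 0.38 ± 0.045 (0 h) and 0.97 ± 0.053 at 5 h, and with scaling on long-lived mRNAs the 0 h call was lost (0.054, adjusted p = 0.32). Pold1, the catalytic subunit of the same enzyme, went from 74.3 and 70.7 TMM-scaled CPM in WT at 0 h to 61.3 and 57.1 (1 h), 54.9 and 52.6 (3 h), and 73.1 and 81.1 (5 h), against 117 and 117, 168 and 172, 148 and 146, and 208 and 200.1. Pole (chr5:110434172-110485340, plus strand), the catalytic subunit of the leading-strand polymerase epsilon, had the widest 0 h difference of the role at 1.26 ± 0.085. Its level in WT was 15.1 and 16.3 TMM-scaled CPM at 0 h, 15.5 and 15.7 (1 h), 13.5 and 11.4 (3 h), and 42.9 and 37.4 (5 h), while libraries labelled Nat10-deficient held 39 and 36.2, 44.5 and 45.1, 34.2 and 34.1, and 47.6 and 51.8. The rise of Pole in the WT files at 5 h left a genotype difference of 0.30 ± 0.094 there. Prim2, a primase subunit, also stood high in WT at 5 h, with 17.7 and 18.9 (0 h), 17.6 and 14.8 (1 h), 17.8 and 20.7 (3 h), and 39.5 and 32.3 (5 h). Pole2, another epsilon subunit, was not called at 0 h (0.23 ± 0.12, adjusted p = 0.098).

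Among clamp, loader and Okazaki fragment genes 7 of 9 were higher at 0 h (all genes, 36.0%). Rpa2, a subunit of the protein that coats single-stranded DNA, fell in WT from 128 and 126 TMM-scaled CPM at 0 h to 101 and 104.8 (1 h), 81.1 and 83.4 (3 h), and 74.5 and 73.2 (5 h). In the other genotype it went from 148 and 146 to 199 and 187, 193 and 189, and 266 and 269, and its difference widened from 0.21 ± 0.038 at 0 h to 1.86 ± 0.053 at 5 h. Rfc4, a clamp loader subunit, measured 44.9 and 41.7 TMM-scaled CPM in WT at 0 h, 43.6 and 40.3 (1 h), 49.3 and 53.1 (3 h), and 65 and 53.4 (5 h). The libraries labelled Nat10-deficient held 88.5 and 93.9, 99.2 and 103, 90.8 and 95.1, and 132 and 135 for Rfc4, without overlap. The widest 0 h difference of all members, 1.34 ± 0.28, belonged to Fen1, the flap nuclease of Okazaki fragments, at levels of only 1.61 and 1.41 TMM-scaled CPM in WT and 3.63 and 4.06 in the others. Of its exonic bases 84.2% are shared with Tmem258 and Gm10143 on the opposite strand, and fragments in shared exons were not assigned to it, so its level is uncertain. Its later files held 0.962 and 0.918 (1 h), 0.674 and 0.71 (3 h), and 2.19 and 2.27 (5 h) in WT, and 3.41 and 2.35, 2.54 and 3.55, and 5.09 and 4.15 in the others. The clamp gene Pcna (0.11 ± 0.076, adjusted p = 0.22) and the loader gene Rfc3 (0.05 ± 0.065, adjusted p = 0.57) were not called at 0 h.

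All 4 nucleotide supply genes were higher at 0 h (all genes, 36.0%). Rrm1 and Rrm2 encode the large and the small subunit of ribonucleotide reductase. Rrm1 measured 341 and 339 TMM-scaled CPM in WT at 0 h, 289 and 299.8 (1 h), 274 and 256 (3 h), and 403 and 406 (5 h). In libraries labelled Nat10-deficient it measured 542 and 549.8 (0 h), 580.2 and 597 (1 h), 598 and 608 (3 h), and 911 and 899 (5 h), and the difference was 0.68 ± 0.026 (0 h) and 1.16 ± 0.030 at 5 h. Rrm2 went from 31.3 and 28 TMM-scaled CPM in WT at 0 h to 35 and 30.3, 40.2 and 39.5, and 51.3 and 49, and from 56 and 54.1 to 60.9 and 58.1, 68.1 and 63, and 83.5 and 81.7 in the others. Both genotypes thus gained Rrm2 relative to the other genes, and the groups did not overlap at any time.

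Of the 5 chromatin and repair genes 4 were higher at 0 h (all genes, 36.0%) and Chaf1b (chr16:93680789-93703003, plus strand), the middle subunit of chromatin assembly factor 1, was lower (-0.13 ± 0.041, adjusted p = 0.0031). Chaf1b measured 138 and 131 TMM-scaled CPM in WT at 0 h, 102 and 104.6 (1 h), 39.5 and 42.8 (3 h), and 43.1 and 50.5 (5 h), and in the others 121 and 125, 143 and 141, 104 and 107, and 134 and 134. Its 0 h difference was 0.048 when read from the lines fitted to the summed files, which draw on the later times, and 6.01 with ERCC scaling. The call was lost without the first WT file (-0.09) or the first file labelled Nat10-deficient (-0.10). Chaf1a (chr17:56347439-56379289, plus strand), the large subunit of the same factor, ran the other way. It measured 40.5 and 35.4 TMM-scaled CPM in WT at 0 h, 35.3 and 36.8 (1 h), 32.1 and 33.4 (3 h), and 34.1 and 39.9 (5 h), and in the others 65 and 67.2, 56.5 and 55.3, 27.6 and 29.3, and 33.5 and 35.2. Of its exonic bases 52.5% are shared with Ubxn6 on the opposite strand. Slbp (chr5:33792296-33809918, minus strand), which binds the stem-loop of histone mRNAs, measured 148 and 146 TMM-scaled CPM in WT at 0 h, 176 and 176 (1 h), 163 and 160.1 (3 h), and 136 and 149 (5 h), and in the others 222 and 219, 218 and 217, 199 and 199.5, and 132 and 141. Uhrf1, which brings the maintenance methyltransferase to replicated DNA, went from 91.3 and 94 TMM-scaled CPM in WT to 64.5 and 65.2, 60.9 and 59.4, and 52.7 and 53, and from 128 and 137 to 161 and 158, 128 and 134, and 195 and 199 in the others.

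After the block the genotype difference covered more of the members. At 1 h all 42 were higher in libraries labelled Nat10-deficient, against 32.4% of all genes, and none was lower (31.8%), with a median log2 fold change of 1.14 and a range from 0.31 for Slbp to 1.75 for Gins2. Of the exonic bases of Gins2, 67.3% are shared with Gse1 on the opposite strand. When long-lived mRNAs set the scale, 34 members were higher and 1 lower at 1 h (18.7% and 47.3% of all genes), and Slbp was at -0.19. At 3 h 40 were higher, against 30.4%, and none was lower (37.0%), with a median of 1.05, and the others were Cdc6 and Chaf1a (-0.20 ± 0.097, adjusted p = 0.057), which RLE factors called lower at -0.45. The widest differences at 3 h were those of Fen1 (2.13 ± 0.47) and Pole2 (2.10 ± 0.21). At 5 h 39 were higher, against 34.2%, and none was lower (30.1%), with a median of 1.01, and the highest was Lig1, the ligase that joins Okazaki fragments (2.37 ± 0.057). Chaf1a (-0.10 ± 0.097, adjusted p = 0.4), Slbp (-0.05 ± 0.049, adjusted p = 0.34) and Pcna (0.09 ± 0.11, adjusted p = 0.51) were not called at 5 h. Without the second WT file at 5 h, Pcna (0.36) and Slbp (0.20) were called higher. The median of all genes was 0 (1 h), -0.07 (3 h) and 0.10 at 5 h. With the files of a group summed, 0, 20 and 0 members were called higher at 1, 3 and 5 h (0%, 2.89% and 0% of all genes). In that fit 42, 42 and 40 log2 fold changes were above 0. Scaling on the long-lived mRNAs, which moved the median of all genes to -0.80 at 3 h, left 23 members higher and 5 lower there (13.2% and 56.4% of all genes).

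**Figure D2:**
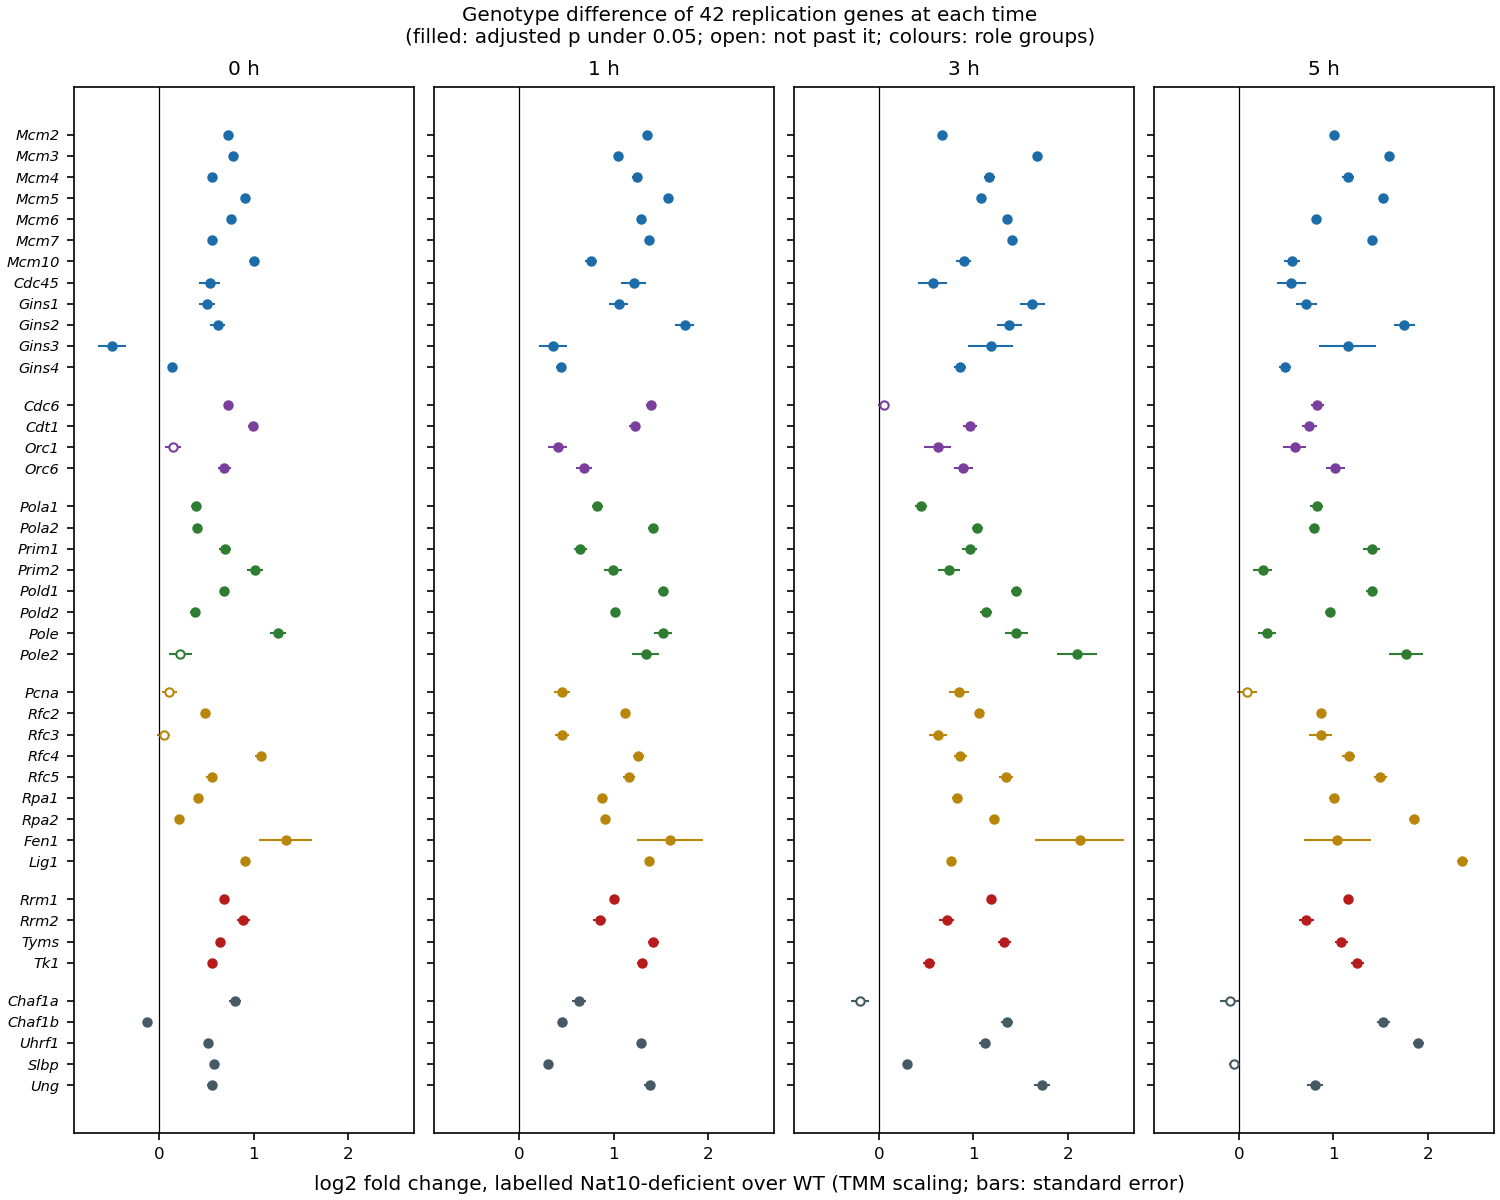
Log2 fold change of each of the 42 members, libraries labelled Nat10-deficient over WT with TMM scaling (horizontal axis), at 0, 1, 3 and 5 h, with the standard error as a bar, colours by role, filled symbols past an adjusted p of 0.05 and open symbols not past it. At 0 h the median is 0.57 and Gins3 and Chaf1b lie below 0, and at 1 h all 42 symbols are filled and above 0.

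Other gene lists moved in the same libraries. Of all genes, 36.0% were called higher and 24.2% lower at 0 h, 32.4% and 31.8% (1 h), 30.4% and 37.0% (3 h), and 34.2% and 30.1% (5 h). The 30 long-lived reference mRNAs, which were not chosen for replication, were also mostly higher. Of these, 28 were higher and 0 lower at 0 h, 27 and 2 (1 h), 27 and 2 (3 h), and 22 and 6 (5 h). Their median log2 fold changes were 0.35, 0.51, 0.81 and 0.49. G2 and M phase genes were higher in 28 of 30 cases at 0 h, 29 (1 h), 25 (3 h) and 26 (5 h), and their summed level was 1941 and 1966 CPM in the WT files at 0 h and 2843 and 2847 in the others. Of 15 LT-HSC markers 14 were lower at 0 h, and their summed level of 3477 and 3545 CPM in WT compares with 1394 and 1400. At 1 h 15 were lower, at 5 h 11, and at 3 h 6 were lower and 6 higher, with 823.7 CPM on average in WT and 938.8 in the others. All 15 were detected in both genotypes at every time. All 10 mast cell and basophil markers were higher at 0 h, with 250.7 and 254.9 CPM in all in WT against 608 and 604. Their later means were 1283 against 1255 (1 h), 625.6 against 4455 (3 h) and 338.2 against 2030 (5 h), with Cma1 at 0 in WT at all 3 times. Of these 10 markers 5 were called higher and 5 lower at 1 h, 10 and 0 (3 h), and 9 and 1 (5 h). Plasma and B cell markers summed to 3783 and 3801 CPM in WT at 0 h and to 72110 and 73750 (5 h), and Mzb1 was at 0 in the WT files at 0 h. In libraries labelled Nat10-deficient they summed to 6371 and 6380 (0 h) and 4382 and 4385 (5 h). Between these times they rose there too, with means of 8732 (1 h) and 30570 (3 h), against 25360 and 59410 in WT. Neutrophil and monocyte markers summed to 6955 and 6998 CPM in WT at 0 h and 11030 and 10930 in the others. Neutrophil and monocyte means were later 4093 against 13460 (1 h), 7106 against 20100 (3 h) and 5683 against 15250 (5 h). The single markers were mixed, and of these 12 genes 6 were called higher and 3 lower at 0 h. The counts were 6 and 4 (1 h), 6 and 5 (3 h), and 5 and 7 (5 h), with a median log2 fold change of -1.67 at 5 h. Erythroid markers summed to 4672 and 4640 CPM at 0 h against 4992 and 5008, and their later means were 3342 against 6672 (1 h), 1924 against 5333 (3 h) and 1732 against 15190 (5 h). Of the 11 erythroid markers tested, 7 were called higher and 1 lower at 0 h, 9 and 1 (1 h), 6 and 2 (3 h), and 7 and 2 (5 h). At 0 h T and NK cell markers summed to 150.1 and 139.5 against 221.7 and 224.1, with Cd3e and Cd8a at 0 in WT. Their later means were 128.8 against 255.2 (1 h), 118 against 272.1 (3 h) and 75.19 against 153.1 (5 h). Most single T and NK markers went the other way after 0 h. Of the 10, 5 were called higher and 1 lower at 0 h, 1 and 7 (1 h), 2 and 7 (3 h), and 1 and 8 (5 h). The part of these cell types in the differences of the replication genes was not tested. With the immunoglobulin genes taken out before scaling, 36, 42, 40 and 38 members were higher at 0, 1, 3 and 5 h (33.6%, 31.5%, 29.9% and 30.9% of all genes).

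**Figure D3:**
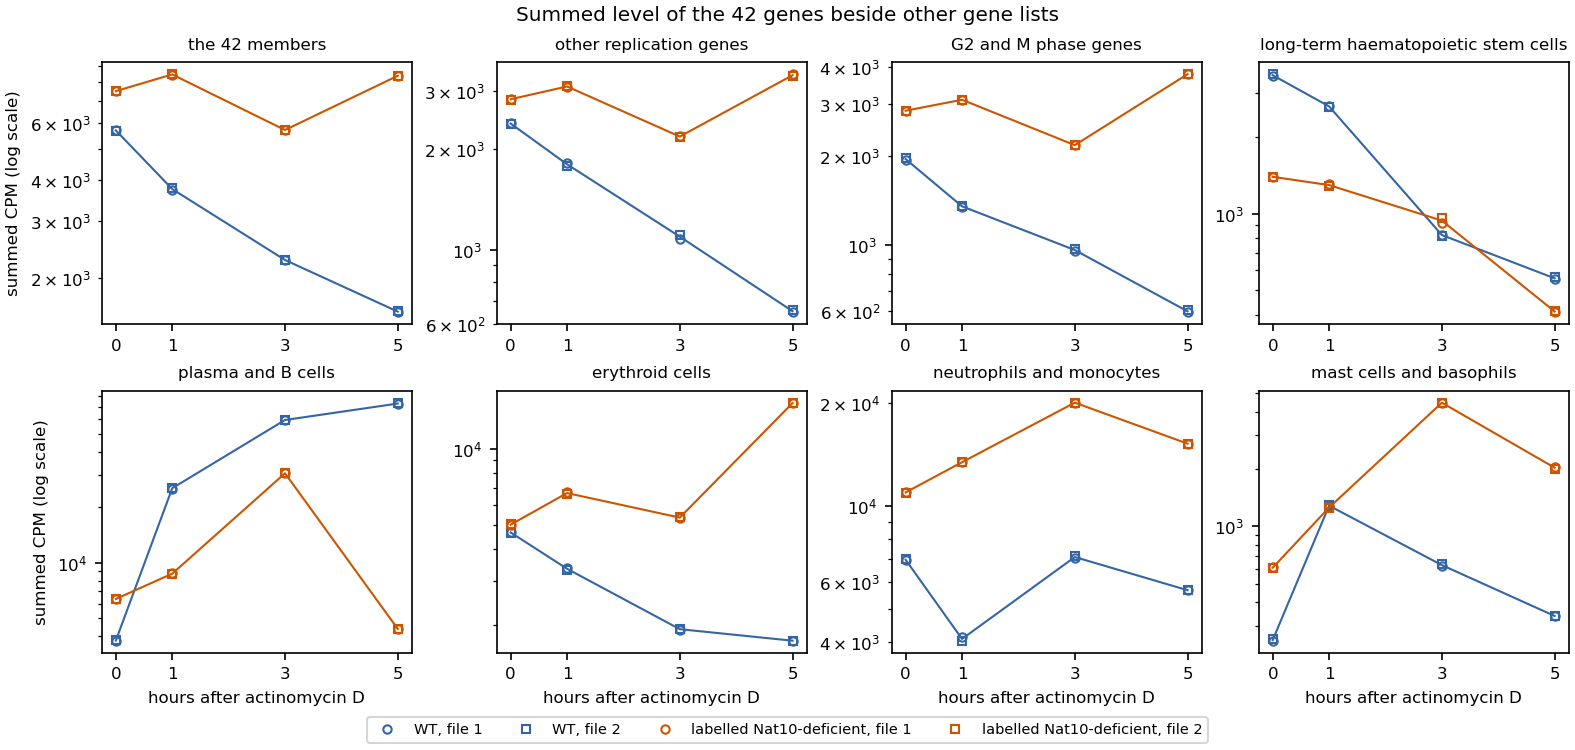
Summed CPM (log scale) of the 42 members and of 7 other gene lists against hours after actinomycin D, with WT in blue, libraries labelled Nat10-deficient in orange, a circle or square for each file and a line through their mean. Members, other replication genes and G2 and M phase genes lie higher in orange at every time, LT-HSC markers lie lower at 0 h, and plasma and B cell markers rise in blue from 3792 to 72930 CPM. In orange the plasma and B cell markers reach 30570 CPM at 3 h and stand at 4384 CPM at 5 h.

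Genes of the same pathway outside the 42 were measured in the same way. Of 46 other replication genes, 34 were called higher and 5 lower before the block (36.0% and 24.2% of all genes). The counts were 38 and 4 at 1 h (32.4% and 31.8%), 32 and 5 at 3 h (30.4% and 37.0%), and 35 and 6 at 5 h (34.2% and 30.1%). The log2 medians were 0.48, 0.71, 0.61 and 0.97. The 2 with the highest level per exonic kilobase were Dut, which keeps uracil out of the nucleotide pool, and Pole3, a histone-fold subunit of polymerase epsilon. Dut was higher by log2 0.70 ± 0.032 (0 h) and 1.95 ± 0.037 (5 h), and Pole3 by 0.68 ± 0.045 and 1.43 ± 0.055.

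To follow the loss of mRNA, counts were set against the ERCC spike-ins, which were added in equal amount to each RNA sample per the labels. On this scale all 42 members were lower at 1 h than at 0 h in both files of WT (60.5% of all genes) and of libraries labelled Nat10-deficient (73.3%), and none was higher (19.9% and 8.46%). These counts depend on the ERCC share. It went from 1.83% and 1.79% (0 h) to 2.92% and 2.90% (1 h) in WT, and from 0.0226% and 0.0221% to 0.0584% and 0.0587% in the others. Over the same step the members' mean summed CPM fell from 5698 to 3762 in WT and rose from 7526 to 8469 in the others. A median of 40% of the 0 h level of a member was left in WT at 1 h, 31.4% at 3 h and 20.1% at 5 h, against 46.3%, 37.7% and 16.2% for all genes. In libraries labelled Nat10-deficient the members' medians were 42.4%, 27% and 20.1%, against 36.9%, 24.9% and 13.4% for all genes. Members thus kept a larger median share than all genes at each time in these libraries, and in WT at 5 h only. The course in WT was less regular than in the other genotype. From 1 to 3 h 32 members were lower in both WT files (44.6% of all genes) and Mcm2, Mcm5, Cdc6, Pola1 and Tk1 were higher (36.2%), whereas 41 were lower and none higher in libraries labelled Nat10-deficient (55.5% and 21.4%). From 3 to 5 h 36 members were lower in WT (69.8%) and Gins1, Pole and Fen1 higher (11.3%), and in the other genotype 39 were lower (62.2%) and Gins2 was higher (16.7%). A level that rises under a transcription block cannot be read as decay, and each time is a separate sort.

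**Figure D4:**
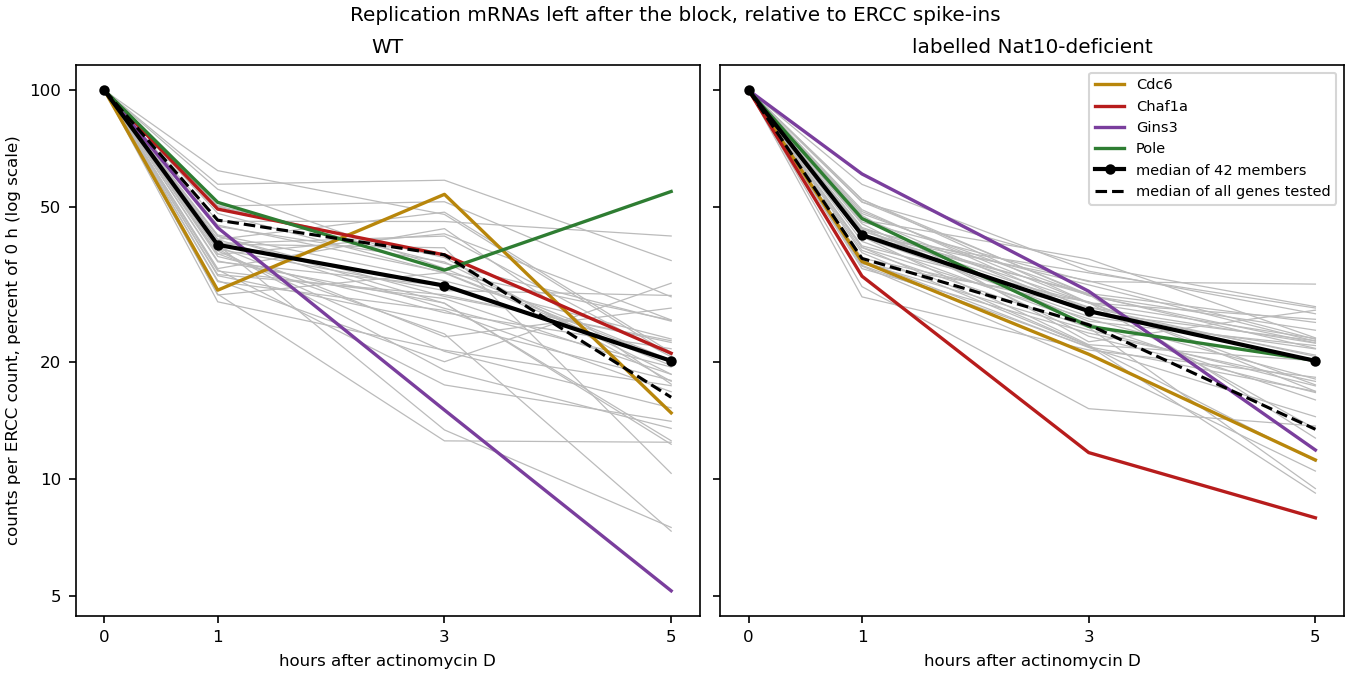
Counts per ERCC count as a percent of the 0 h mean (log scale) against hours after actinomycin D in WT (left) and in libraries labelled Nat10-deficient (right), with a grey line for each member, coloured lines for Cdc6, Chaf1a, Gins3 and Pole, a black line for the median of the 42 and a dashed line for the median of all genes tested. The medians of the members end at 20.1% in both panels, and the dashed lines end at 16.2% and 13.4%.

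Fitted over the 4 times, all 42 members fell in both genotypes, against 57.4% of all genes in WT and 71.3% in libraries labelled Nat10-deficient, and none rose (11.1% and 3.19% of all genes). The median slope was -0.41 log2 units per hour in WT, a half-life of 2.44 h, and -0.43 in the others, a half-life of 2.31 h. For all genes the medians were -0.36 (2.75 h) and -0.48 (2.08 h). The median level fell most in the first hour. Without the 0 h libraries the members' half-lives were 4.11 h in WT and 3.69 h in the others, against 3.26 h and 3.13 h for all genes. Without the 5 h libraries they were 2.01 h and 1.67 h, against 3.17 h and 1.75 h. The members' median half-life in WT was thus shorter than that of all genes over the 4 times, but longer without the 0 h libraries. Scaling on long-lived mRNAs gave members 5.34 h and 8.40 h, and all genes 5.53 h and 6.11 h. With the files of a group summed, 32 members fell in WT and 38 in the others (26.7% and 35.4% of all genes). With TMM in place of ERCC scaling, which asks how a gene moved relative to the other genes, 10 members rose and 16 fell in WT (28.1% and 31.2% of all genes), and 27 rose and 10 fell in the others (29.0% and 31.8%). Nucleotide supply genes had the flattest role median in each genotype, -0.35 in WT and -0.38 in the others, and the chromatin and repair genes the steepest, -0.50 and -0.56. Licensing genes had medians of -0.43 in WT and, nearly as steep as the chromatin and repair genes, -0.56 in the others. In WT the steepest member was Gins3 at -0.82 ± 0.044, with 44.8% and 43.8% of its 0 h level left in the files at 1 h, 18.3% and 11.8% (3 h), and 6.47% and 3.82% (5 h). The flattest was Pole at -0.16 ± 0.021, with 50.7% and 52.2%, 37.3% and 31.6%, and 58.1% and 51.6% left, so its line does not follow a steady fall, and without the 0 h libraries its slope was 0.03. In libraries labelled Nat10-deficient the steepest was Chaf1a at -0.70 ± 0.013, with 33.7% and 32.8% left at 1 h, 11.4% and 11.9% (3 h), and 7.58% and 8.28% (5 h). The flattest was Pold2 at -0.30 ± 0.0086, with 46.4% and 45.3%, 34.3% and 30%, and 30.8% and 32.6% left.

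The slopes differed between the genotypes in both directions. The difference, libraries labelled Nat10-deficient minus WT, was above 0 (a slower fall) in 10 members, against 15.7% of all genes, and below 0 (a faster fall) in 18, against 32.1%, with 14 not called. The median difference was -0.03 log2 units per hour, and that of all genes -0.10. The direction depends on the scaling, since TMM scaling gave 25 members above 0 and 7 below (24.5% and 24.2% of all genes), and scaling on long-lived mRNAs gave the same counts (24.4% and 24.3%). With the files of a group summed, no member differed at an adjusted p under 0.05 in the edgeR test, and none had an unadjusted p under 0.05. The members' median standard error in that fit was 0.20 log2 units per hour, so it could not decide differences of 0.2 or of 0.1. In simulated data the same fit recovered 0% of differences of these sizes. The simulated libraries had equal ERCC counts but unequal totals, which adds spread, so that rate does not measure the present data. DESeq2 on the separate files called 10 and 18 (15.3% and 34.2% of all genes).

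Genes for subunits of chromatin assembly factor 1 stood at the ends of this range. Chaf1b had the highest difference, 0.24 ± 0.016, from slopes of -0.73 in WT and -0.49 in the others, and kept 6.83% and 8.14% of its 0 h level in the WT files at 5 h against 16.3% and 17%. Chaf1a had the lowest, -0.30 ± 0.023, from -0.41 and -0.70, and kept 19.2% and 22.9% against 7.58% and 8.28%. Gins3 (0.22 ± 0.062), Rpa2 (0.21 ± 0.014), Lig1 and Uhrf1 (0.13 ± 0.015 and 0.13 ± 0.016) and Mcm3 (0.08 ± 0.011) also had the slower fall in libraries labelled Nat10-deficient. Without the 5 h libraries the differences of Lig1 and Uhrf1 turned to -0.30 and -0.06. The faster fall there was found for Pole (-0.28 ± 0.025), Prim2 (-0.25 ± 0.026), Slbp (-0.20 ± 0.013), Cdc6 (-0.17 ± 0.017), Cdt1 and Mcm10 (-0.16 ± 0.019 and -0.16 ± 0.020) and Mcm6 (-0.10 ± 0.010, and -0.004 and not called with TMM scaling). Slbp kept 61.7% and 62.5% of its 0 h level in WT at 1 h against 39% and 38.4%, and 19.7% and 21.9% (5 h) against 8.93% and 9.92%. Licensing genes had 2 of 4 members below 0 (all genes, 32.1%) and none above (15.7%), with a median of -0.09, close to the -0.10 of all genes. Slopes of Pold2 (0.00 ± 0.014), Rrm1 (-0.01 ± 0.010) and Rfc3 (0.05 ± 0.027, adjusted p = 0.093) were not called different. Across the 42 genes the slopes of the genotypes had a Pearson correlation of 0.38 (Spearman 0.38) and across all genes of 0.20 (0.26), as a description over genes that share libraries.

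**Figure D5:**
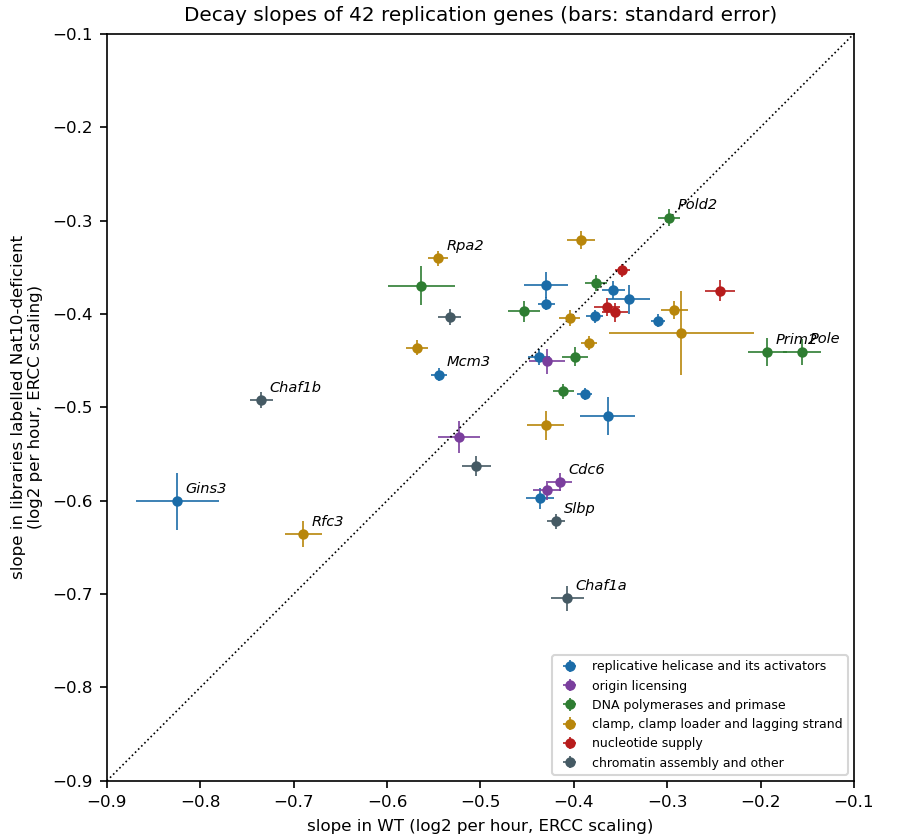
Decay slope of each member in WT (horizontal axis) and in libraries labelled Nat10-deficient (vertical axis), in log2 units per hour with ERCC scaling, with standard errors as bars, colours by role and a dotted line of equal slopes. Chaf1b, Gins3 and Rpa2 lie above the line and Chaf1a, Pole, Prim2 and Slbp below it.

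Slopes were also set beside a feature of the transcripts. The AU-rich word TATTTAT stood in the annotated 3′ UTR of 6 of the 42 members (Orc1, Mcm2, Mcm5, Cdc6, Cdc45 and Chaf1a, 14.3%) and of 24.3% of 21669 protein-coding genes, in the GENCODE annotation of GRCm38. The median slope of the 6 was -0.39 in WT and -0.52 in libraries labelled Nat10-deficient, and that of the other 36 was -0.42 and -0.43.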

How the data were processed

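The deposited values are counts of fragments per gene. Per the file headers, featureCounts 1.6.3 made them in unstranded mode with an annotation whose path names Ensembl release 105. STAR, DESeq2 and the build GRCm39 appear in the submitters' processing notes. Symbols came from a GENCODE table for 52081 of 55414 gene identifiers, and groups came from the labels. The members and the gene lists were chosen with earlier results of these data known.

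Genes kept by filterByExpr (25081) entered edgeR 4.0.16 in R 4.3.3 as deposited, with a quasi-likelihood test on a mean for each of the 8 groups and Benjamini-Hochberg adjustment over all genes tested. Genotype differences used TMM factors. Slopes were linear contrasts over the 4 times after scaling each library on its ERCC counts, and an interaction tested their difference. Standard errors were obtained by dividing the absolute log2 value by the root of F, and half-lives by inverting falling slopes. Levels per length used the exonic length in the files. Without molecular identifiers, reads are not independent molecules, and errors cover counting and file spread only.

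Values in every file are given, in each of the 6 roles, for the 2 members with the highest level per exonic kilobase, and for those at either end of the 0 h difference, of each slope and of the slope difference. Other members were named after their values were seen. Alternatives were DESeq2 1.42.0, no filter, each file left out, a replicate block, files summed, other scalings and fewer times or groups. The scripts were tested on simulated data. There the separate files recovered 49% of slope differences of 0.2 log2 units per hour and 0% of those of 0.1. The simulated libraries had equal ERCC counts but unequal totals, so ERCC scaling added spread between the files of a group. These rates therefore do not measure what the present data could detect. In the data the members' median standard error of the slope difference was 0.018 with separate files.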

Additional observations from a re-analysis of the deposited data

Results flagged for a closer look

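Of the 10 members above 0 and 18 below 0 that passed the interaction test of edgeR (adjusted p under 0.05), the report prints the slope difference of 14, chosen after their values were seen. These 14 are listed because the fall differed between the genotypes, in log2 units per hour, libraries labelled Nat10-deficient minus WT. A slower fall in these libraries was measured for Chaf1b (0.24), Gins3 (0.22), Rpa2 (0.21), Lig1 (0.13), Uhrf1 (0.13) and Mcm3 (0.08). A faster fall was measured for Chaf1a (-0.30), Pole (-0.28), Prim2 (-0.25), Slbp (-0.20), Cdc6 (-0.17), Cdt1 (-0.16), Mcm10 (-0.16) and Mcm6 (-0.10). None of the 14 was called with the files of a group summed, a fit in which the members' median standard error was 0.20.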

How the results depend on the processing

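With the files of a group summed to 1 library, members called higher numbered 0 (0 h), 0 (1 h), 20 (3 h) and 0 (5 h), none was called lower, and 0 and 0 slope differences were called. Read from the lines of that fit, Chaf1b at 0 h was 0.048. Scaling on long-lived mRNAs gave 6 lower at 0 h, 1 at 1 h, 23 higher and 5 lower at 3 h, 2 lower at 5 h, 1 rising slope in each genotype, and 25 slope differences above and 7 below 0. Of all genes it called 36.2% (0 h), 47.3% (1 h), 56.4% (3 h) and 34.9% (5 h) lower, and 17.2% rising in WT and 11.1% in the others. On that scale Pcna (-0.21), Rfc3 (-0.28) and Rpa2 (-0.11) at 0 h, Slbp at 1 h (-0.19), Cdc6 at 3 h (-0.68), the slopes of Pole in WT (0.066) and Pold2 in the other genotype (0.018), and the slope difference of Rrm1 (0.087) changed sign. TMM scaling of slopes gave 10 rising and 16 falling in WT, 27 and 10 in the others, differences of 25 and 7, Pole 0.24, Pold2 0.19 and Rrm1 0.088, and with immunoglobulin genes also left out 11 and 15, 27 and 10, 25 and 7, 0.24, 0.19 and 0.082. Without the immunoglobulin genes, 27.7% of all genes rose and 28.9% fell in WT, and 27.1% and 30.3% in the others. Slope differences were above 0 in 22.3% and below 0 in 22.9% of all genes. ERCC scaling moved the median genotype difference of all genes to between 5.19 and 6.24, with 0 lower at 0 h, Gins3 5.64 and Chaf1b 6.01 at 0 h, Chaf1a 5.25 (3 h) and 5.55 (5 h), and Slbp 5.59 (5 h). RLE factors and DESeq2 each called 2 lower at 3 h and 1 at 5 h, with Cdc6 at -0.20 at 3 h, and a fit of only the groups compared called 1 lower at 3 h. Of all genes RLE factors called 43% lower at 3 h and 30.9% at 5 h, DESeq2 36.8% and 29.1%, and the latter fit 41.4% at 3 h. Without the 5 h libraries the slope differences of Lig1 and Uhrf1 were -0.30 and -0.056, and without the 0 h libraries Pole in WT was 0.026. The cause was not tested. Leaving out each file in turn gave 35 to 36 higher and 0 to 2 lower at 0 h (0 without the first file labelled Nat10-deficient, 1 without the first WT file), 41 to 42 higher at 1 h, 39 to 40 at 3 h, 38 to 41 at 5 h, and 9 to 11 slope differences above and 15 to 19 below 0, and Slbp at 5 h ranged from -0.093 to 0.20, the latter without the second WT file. The replicate number does not pair the files, whose deviations correlated at 0.0081 to 0.0248, and with a replicate block the counts were 36 and 2, 42, 40 and 39 higher or lower and 10 and 18 slope differences. Of 999 values of single genes under alternatives, 897 kept direction and side of the threshold.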
